A study of Mus musculus with 26 samples.

Results

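The 83 genes described here encode the proteins of the cytosolic ribosome and their close relatives. They were taken from 2 tables of gene expression by gene type and symbol alone. Each was a protein-coding gene named Rpl or Rps with a number, or was Rpsa, Rplp0, Rplp1 or Rplp2. The same 83 genes were found among 53465 rows of a table on muscle regeneration and among 55487 rows of a table on C2C12 myoblasts, a mouse cell line that fuses into myotubes when serum is withdrawn. Of them, 77 were core members, with 31 in the small subunit, 43 in the large subunit and 3 in the stalk. The other 6 were paralogs, genes named after a core member with an added l or l1: Rpl3l, Rpl7l1, Rpl10l, Rpl22l1, Rpl39l and Rps27l. Genes such as Fau and Rack1, whose symbols do not follow the pattern, were counted apart.

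The muscle libraries came from tibialis anterior muscle at days 0, 1, 3, 5 and 10 of cardiotoxin (CTX) injury, with 2 libraries per day. The study's methods name 6-week-old male mice and a saline injection as the control, whereas the labels give the uninjured group only as day 0. The cell libraries came from C2C12 cells labelled CTRL and Cas9M3, in growth medium (day 0) and after 3 days of differentiation (day 3), with 2 libraries per group. By the study's methods the Cas9M3 cells were a puromycin-selected lentiviral line in which dCas9-KRAB, a transcriptional repressor driven by the hUbC promoter, was guided to the promoter of Mettl3, the catalytic subunit of the RNA m6A methyltransferase. The labels do not say whether replicates were separate animals or cultures, so the p-values measure the spread between these libraries, which may be technical.

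Ribosomal proteins are needed in nearly equal numbers to build the small subunit, which decodes mRNA, and the large subunit, which forms peptide bonds. Many of their mRNAs begin with a run of pyrimidines that links their translation to mTOR signalling. Rpl3 sits near the peptidyl transferase centre of the large subunit, and Rpl3l is its paralog in striated muscle. Muscle has a similar pair among the elongation factors, with Eef1a1 in most cells and Eef1a2 in mature fibres.

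To show how the starts of these genes compare, the 30 bases around the transcription start are printed for Rpl3l, for its fellow paralogs Rps27l, Rpl22l1 and Rpl39l, and for the core members Rps27, Rpl13a and Rpl39. They run from 15 bases before to 15 bases from the start, and capitals mark a run of at least 8 pyrimidines. Sequences and positions are from RefSeq on GRCm38.p6, each given on the gene's own strand and at the most upstream start where several are listed.
Rpl3l, chr17:24727811-24727840, plus strand: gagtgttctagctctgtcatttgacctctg
Rps27l, chr9:66946071-66946100, plus strand: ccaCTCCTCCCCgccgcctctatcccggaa
Rpl22l1, chr3:28805493-28805522, plus strand: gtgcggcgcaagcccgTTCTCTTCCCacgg
Rpl39l, chr16:10170213-10170242, plus strand: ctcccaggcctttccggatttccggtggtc
Rps27, chr3:90213634-90213663, minus strand: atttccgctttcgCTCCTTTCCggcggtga
Rpl13a, chr7:45128731-45128760, minus strand: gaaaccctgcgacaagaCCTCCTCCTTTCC
Rpl39, chrX:37085208-37085237, minus strand: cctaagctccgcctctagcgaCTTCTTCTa
The Rpl3l window held no such run, and the longest there was 5 pyrimidines. Of the 83 genes, 63 had an entry in the RefSeq promoter table, and 27 of these (42.9%) had a run of at least 8 in such a window, against 13.9% of 27025 genes. The runs were searched on the gene's strand only. The palindromic E-box CAGCTG, searched in the 300 bases around the start, cannot lie inside a pyrimidine run. It was found in 4 members (6.35%) and in 18.3% of all genes. Rpl3l was among the 4. A match is a string of letters and not a bound site.

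The values were FPKM, reads scaled by the authors by exon length and by a factor for each library. That factor did not follow the read total alone. On a 1 kb gene, 1 read was 0.104 FPKM in the second CTRL day 0 library (14230000 reads implied). It was 0.0681 FPKM in the second Cas9M3 day 3 library (15090000 reads implied). The exon length matched the sum of all annotated exons, which is 383 bases for Rpl36, 499 for Rplp1 and 6270 for Rps15a. Levels of different genes thus depend on the annotation, and ranks of members are ranks of FPKM only. The 2 tables were scaled separately and were compared only within each. Low values fell on whole multiples of 1 read, which implied 14170000 to 18820000 reads on genes in the muscle libraries and 14230000 to 29570000 in the cell libraries. Xist, the RNA of X inactivation, was at 5.78 to 10.0 FPKM in the day 0 and day 10 libraries and the second day 3 library, and at 0.0170 to 0.152 FPKM in the other 5, although the methods name male mice. Comparisons of day 0 with days 1 and 5 therefore cross this split, and the results are also given with a term for it. Only day 3 has a library on each side, so the term rests on the difference between those 2 libraries. With it, the day 3 change is that of the second day 3 library against day 0. Leaving out the first day 3 library gives the same member median, 0.84, so these are not separate checks. At days 1 and 5 no library tells the split from the day. A single row, Gm23935, held 21.5 to 30.2% of the summed FPKM in the muscle libraries. Among the cell libraries it held 1.28 to 1.77% in first replicates and 9.40 to 37.9% in second ones. The second CTRL day 0 library was the highest, at 37.9%. Members were mostly higher in the second replicate: 77 of 80 in CTRL day 0, 80 in CTRL day 3, 73 in Cas9M3 day 0 and 77 in Cas9M3 day 3. Their median log2 differences were 1.24, 0.54, 0.34 and 0.34. As a share of summed FPKM, the members held 6.91% in the first CTRL day 0 library and 5.15% in the second. Over nuclear protein-coding genes the shares were 8.28% and 14.6%. Implied reads were 25170000 to 29570000 in first replicates and 14230000 to 18900000 in second ones. The cause was not tested.

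Rpl3l and Rpl3 traded places during regeneration. Rpl3l (ENSMUSG00000002500) lies on chr17:24727820-24736143 of GRCm38, on the plus strand, and its annotated exons merge into 12. Its level was 373 and 299 FPKM at day 0, 149 and 211 FPKM at day 1, 59.1 and 32.0 FPKM at day 3, 101 and 96.2 FPKM at day 5, and 319 and 226 FPKM at day 10. Both day 3 libraries lay below every other library, and the day 0 and day 10 ranges overlapped. Its order over the days was day 0, day 10, day 1, day 5 and day 3, and among neighbours in that order only day 0 and day 10 overlapped.

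Rpl3 (ENSMUSG00000060036), on chr15:80077791-80091868 of GRCm38 and on the minus strand with 9 merged exons, ran the other way. Its level was 11.4 and 23.6 FPKM at day 0, 76.4 and 48.2 FPKM at day 1, 163 and 166 FPKM at day 3, 65.0 and 64.6 FPKM at day 5, and 19.9 and 41.7 FPKM at day 10. Every library of days 1, 3 and 5 lay above every library of days 0 and 10. Among the 83 members, Rpl3l ranked 4 in mean FPKM at day 0 and Rpl3 ranked 76. At day 3 Rpl3 ranked 36 and Rpl3l ranked 76.

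**Figure D1:**
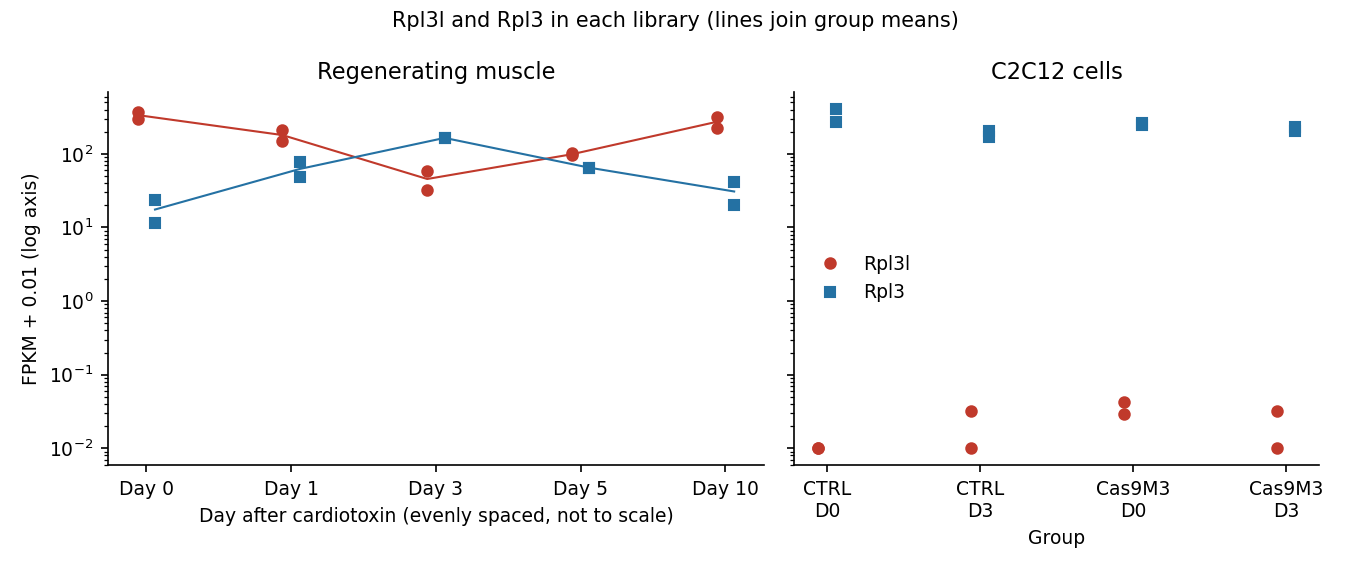
FPKM plus 0.01 on a log axis for Rpl3l (red circles) and Rpl3 (blue squares) in each of the 2 libraries per group, with lines joining group means for the muscle days; the tables were scaled separately. In muscle the lines cross on either side of day 3, where Rpl3l stood at 59.1 and 32.0 FPKM and Rpl3 at 163 and 166 FPKM, and in C2C12 cells Rpl3l stayed at or below 0.0332 FPKM.

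Rpl3l fell at day 3 with a log2 fold change of -2.94 (SE 0.32, limma adjusted p = 0.000497), on the scale of log2(FPKM + 0.1). It was still lower at day 5 (log2 fold change -1.76, SE 0.32, limma adjusted p = 0.0146). At day 1 its log2 fold change of -0.91 (SE 0.32) missed the threshold of 0.05 with a limma adjusted p of 0.122. Between day 3 and day 10 it rose by 2.62 (SE 0.32, limma adjusted p = 0.00113).

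Rpl3 rose at day 3 by 3.32 on the log2 scale (SE 0.43, limma adjusted p = 0.000876). It was higher at day 1 by 1.88 (SE 0.43, limma adjusted p = 0.0475) and at day 5 by 1.97 (SE 0.43, limma adjusted p = 0.0198). From day 3 to day 10 its log2 fold change was -2.51 (SE 0.43, limma adjusted p = 0.00392). Against day 0, the day 10 log2 fold changes were 0.81 for Rpl3 (limma adjusted p = 0.561) and -0.32 for Rpl3l (limma adjusted p = 0.732). The day 3 and day 10 against day 3 calls of both genes held with the term for Xist. There the term in effect uses the second day 3 library alone. With that term the day 1 change of Rpl3 was 1.91 (limma adjusted p = 0.468), and the day 5 changes were 2.00 for Rpl3 (limma adjusted p = 0.253) and -2.64 for Rpl3l (limma adjusted p = 0.143). That term left 0% of all genes called in either direction at day 1 and at day 5.

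The ratio of Rpl3l to Rpl3 within a library does not depend on the scaling between libraries. By FPKM it was 32.7 and 12.7 at day 0, 1.95 and 4.37 at day 1, 0.363 and 0.193 at day 3, 1.56 and 1.49 at day 5, and 16.01 and 5.41 at day 10. Per length, Rpl3l was thus the more abundant of the pair in all libraries but those of day 3. The annotated exons of Rpl3 sum to 3175 bases and those of Rpl3l to 1643 bases, which sets the FPKM of each. By reads alone the ratio was 16.9 and 6.56 at day 0, 1.01 and 2.26 at day 1, 0.188 and 0.0996 at day 3, 0.807 and 0.770 at day 5, and 8.29 and 2.80 at day 10. On that scale Rpl3 was ahead at day 5 as well as at day 3, and the pair was near parity in the first day 1 library. The sum of both genes was 385 and 323 FPKM at day 0, 225 and 259 FPKM at day 1, 222 and 198 FPKM at day 3, 166 and 161 FPKM at day 5, and 339 and 268 FPKM at day 10, so it was lowest at day 5. Of the 100-base windows of Rpl3 transcripts, 28.8% also occur in other genes, and none of those of Rpl3l do.

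The elongation factor pair, which lies outside the 83 genes, changed in the same directions. Eef1a2 stood at 736 and 694 FPKM at day 0, 194 and 142 FPKM at day 3 and 864 and 657 FPKM at day 10. Eef1a1 stood at 78.3 and 179 FPKM, 978 and 1201 FPKM and 149 and 306 FPKM on the same days. At day 3 against day 0 Eef1a2 fell with a log2 fold change of -2.11 (SE 0.21, limma adjusted p = 0.000392) and Eef1a1 rose by 3.19 (SE 0.43, limma adjusted p = 0.00107).

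**Figure D2:**
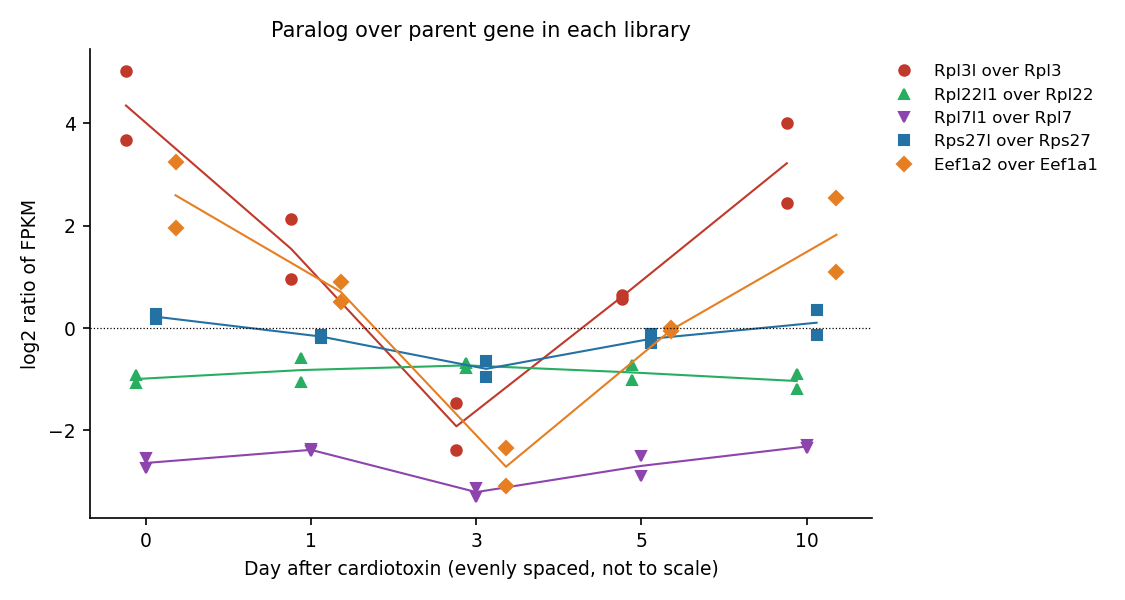
Log2 ratio of FPKM of each paralog to its parent gene in each of the 2 libraries per day, with lines joining means; days are evenly spaced. Rpl3l over Rpl3 and Eef1a2 over Eef1a1 fall below 0 at day 3 and are above 0 at days 0 and 10, whereas Rpl22l1 over Rpl22 and Rpl7l1 over Rpl7 stay below 0 in all 10 libraries.

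The core ribosomal proteins rose together at day 3. The median of the 77 core members was 82.7 and 81.4 FPKM at day 0, 114 and 80.95 FPKM at day 1, 153 and 162 FPKM at day 3, 87.5 and 86.7 FPKM at day 5, and 78.8 and 96.2 FPKM at day 10. The day 3 libraries stood above all others, which lay between 78.8 and 114 FPKM. The 83 genes together held 1.28% and 1.23% of the summed FPKM at day 0 and 3.63% and 4.02% at day 3. Both parts of this share moved. The members summed to 9556 and 8167 FPKM at day 0 and to 14180 and 14620 FPKM at day 3. All rows summed to 746744 and 666877 FPKM and then to 390606 and 364252 FPKM.

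Filtering for at least 0.5 FPKM in at least 2 libraries left 81 of the 83 genes among 16753 tested. Rpl10l, at 0 in every library, and Rpl24, at 0.145 to 0.477 FPKM, were not tested. At day 3 against day 0, 68 members rose and 1, Rpl3l, fell (limma, adjusted p of 0.05 or less), where 24.5% of all genes tested rose and 24.3% fell. The median log2 fold change was 0.82 for the members and 0.01 for all genes tested. Of the 76 core members tested, 66 rose and all had positive changes, from 0.04 to 3.32, with quartiles of 0.65 and 0.97. Rpl3 was the outermost, and without it the largest core change was 2.20. In raw FPKM, 77 of the 81 had both day 3 libraries above both day 0 libraries, against 38.9% of all genes, and 1 had both below, against 39.1%.

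Several settings and libraries moved this count. With the term for Xist, 39 members rose and 1 fell, where 17% and 18% of all genes did, with a median of 0.84. Without the second day 3 library the counts were 32 and 1, where 14.5% of all genes rose and 16.6% fell. Without the first day 3 library they were 40 and 1 (16% and 18.4% of all genes), and without the second day 0 library 36 and 1 (21.2% and 20.7%). After quantile normalization, which moved the median of all genes to -0.12, 77 rose and 1 fell (22.2% and 28.2%).

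In the small subunit, 28 of 31 members rose, with a median log2 fold change of 0.87. Rpsa, which is also known as a laminin receptor, stood at 125 and 113 FPKM at day 0 and 237 and 234 FPKM at day 3, a log2 fold change of 0.99 (SE 0.20, limma adjusted p = 0.0054). Rps12 stood at 64.9 and 58.8 FPKM and then at 165 and 164 FPKM, a log2 fold change of 1.41 (SE 0.24, limma adjusted p = 0.00266). Rps2 was the exception at the low end, at 380 and 357 FPKM at day 0 and 365 and 390 FPKM at day 3 (log2 fold change 0.04, SE 0.25, limma adjusted p = 0.923).

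In the large subunit, 37 of 42 members tested rose, with a median log2 fold change of 0.78. Rpl13a, known as a part of the GAIT complex that silences inflammatory mRNAs, had the second largest core change, from 1.75 and 1.91 FPKM at day 0 to 8.63 and 8.89 FPKM at day 3 (log2 fold change 2.20, SE 0.31, limma adjusted p = 0.00129). Its listed level was far below the core median in every muscle library. Exons of Gm45713, Mir5121 and Snord33 overlap its own on the same strand, and the part of this in its counts was not tested. Rpl10, a late-joining protein of the subunit, stood at 113 and 99.1 FPKM and then at 216 and 229 FPKM, a log2 fold change of 1.07 (SE 0.18, limma adjusted p = 0.00276). Rpl7 stood at 90.4 and 81.5 FPKM and then at 153 and 166 FPKM, a log2 fold change of 0.89 (SE 0.17, limma adjusted p = 0.00399). Each of these had no overlap between day 0 and day 3.

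Of the 3 stalk proteins, which recruit elongation factors to the ribosome, 1 rose. Rplp1 had the highest mean FPKM of the 83 genes at both days, with annotated exons of only 499 bases. It stood at 677 and 487 FPKM at day 0 and 989 and 974 FPKM at day 3 (log2 fold change 0.77, SE 0.23, limma adjusted p = 0.0266). Rplp2 stood at 62.3 and 47.8 FPKM and then at 81.4 and 88.5 FPKM (log2 fold change 0.64, SE 0.23, limma adjusted p = 0.0513). Rplp0, at 435 and 372 FPKM and then at 493 and 510 FPKM, had a log2 fold change of 0.32 (SE 0.20, limma adjusted p = 0.218). The call on Rplp1 was lost without the second day 0 library (log2 fold change 0.54, limma adjusted p = 0.136) or without either day 3 library (0.76 and 0.79, limma adjusted p = 0.0927 and 0.0916), with no filter on low values (limma adjusted p = 0.0756) and with the term for Xist (limma adjusted p = 0.0973). Rplp0 and Rplp2 missed the threshold, and whether the 3 differ from each other was not tested.

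**Figure D3:**
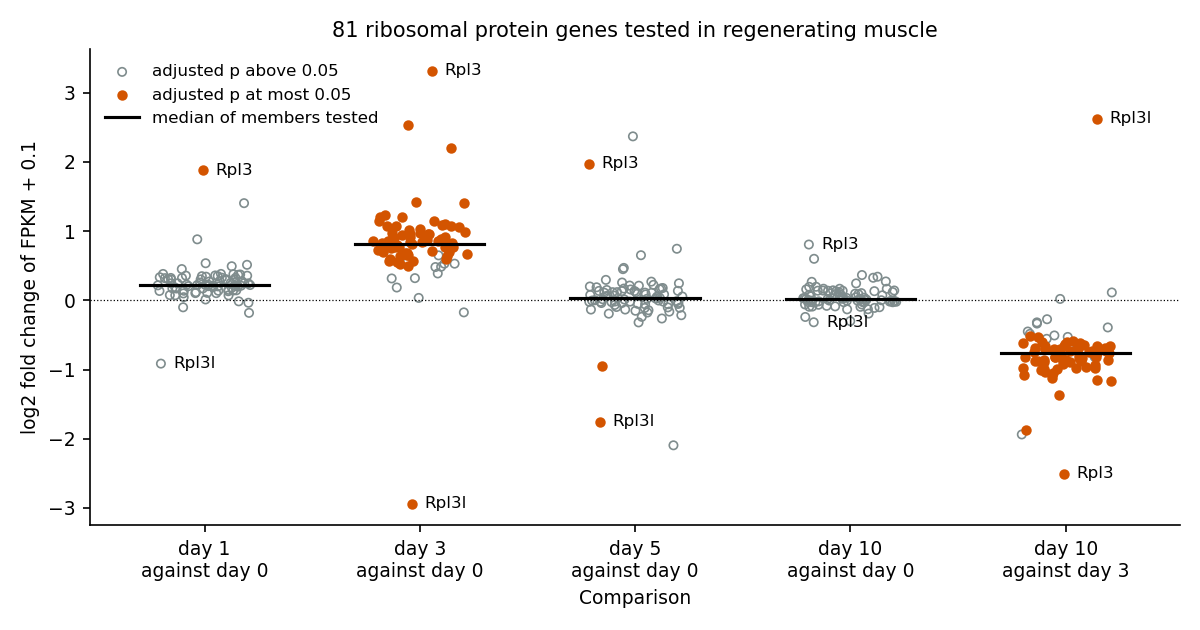
Log2 fold change of FPKM plus 0.1 for each of the 81 members tested in the muscle table, by comparison, with filled points for those called at the 0.05 threshold and a bar at the median. At day 3 against day 0 the members lie around a median of 0.82 with Rpl3 at 3.32 and Rpl3l at -2.94, and at day 10 against day 0 no point is filled.

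None of the other 4 paralogs tested fell at day 3. Rpl22l1 stood at 16.8 and 15.6 FPKM at day 0 and at 29.2 and 28.0 FPKM at day 3, a log2 fold change of 0.82 (SE 0.28, limma adjusted p = 0.0439). Its parent Rpl22 stood at 35.5 and 29.5 FPKM and then at 47.0 and 47.8 FPKM, a log2 fold change of 0.55 (SE 0.16, limma adjusted p = 0.0245). Both genes of this pair passed the test in the same direction, though neither call held in every omission of a library. The call on Rpl22 was lost without the second day 0 library or either day 3 library (3 of 10 omissions). Its log2 fold change was 0.42 to 0.68 over all 10. The call on Rpl22l1 was lost without either library of day 0, day 3 or day 5 (6 of 10 omissions), where its log2 fold change was 0.76 to 0.87 and its limma adjusted p 0.0585 to 0.142. It was also lost with no filter on low values (limma adjusted p = 0.0761) and with the replicate block (limma adjusted p = 0.0588). With the term for Xist the limma adjusted p was 0.147 for Rpl22l1 and 0.0833 for Rpl22.

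Rps27l, a paralog of Rps27 known as a p53 target, stood at 83.8 and 61.8 FPKM at day 0 and 69.2 and 58.8 FPKM at day 3, with overlapping ranges (log2 fold change -0.17, SE 0.20, limma adjusted p = 0.496). Rps27 stood at 69.8 and 54.6 FPKM and then at 108 and 114 FPKM, a log2 fold change of 0.84 (SE 0.18, limma adjusted p = 0.00727). The ratio of Rps27l to Rps27 was 1.20 and 1.13 at day 0 and 0.638 and 0.518 at day 3. It moved in the direction of the Rpl3l ratio but over a far smaller span.

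Rpl7l1, a paralog of Rpl7 with a role in ribosome assembly, stood at 13.7 and 13.9 FPKM at day 0 and 17.6 and 17.0 FPKM at day 3 (log2 fold change 0.32, SE 0.18, limma adjusted p = 0.183). Rpl39l, known from testis, was close to the floor. It was listed at 0 and 0.180 FPKM at day 0, which is 0 and 2 reads, and at 0.915 and 0.833 FPKM at day 3, which is 15 and 14 reads. The ratio of scaled reads was 9.36 (95% exact interval 2.37 to 81, counting error only). Its parent Rpl39 stood at 42.1 and 32.3 FPKM and then at 88.1 and 85.6 FPKM (log2 fold change 1.23, SE 0.21, limma adjusted p = 0.00275). The limma call on Rpl39l (adjusted p = 0.0409) was lost with no filter on low values (adjusted p = 0.0745), after quantile normalization (0.0695) and with the term for Xist (0.136). It was also lost in 7 of 10 omissions of a library, with log2 fold changes of 1.795 to 3.28 over all 10. Rpl39l passed the filter only through libraries of days 3, 5 and 10. Its call against day 0 follows in part from that selection and adds no support, though it is counted among the 68 that rose.

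Before and after day 3 few members passed the test. At day 1 against day 0, only Rpl3 rose and none fell, against 3.53% and 2.47% of all genes tested, and the median of the members was 0.23. The call on Rpl3 was lost under several settings, given below. Without the second day 1 library 8 members rose, where 6.66% of all genes did and the member median was 0.50. Without any of 7 others (both of day 0, day 3 and day 5 and the first of day 1) no member rose, and without the first day 1 library the member median was -0.02. The 2 day 1 libraries differed from each other by a member median of -0.50 on the log2 scale, which was larger than the change from day 0.

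At day 5 against day 0, Rpl3 rose, and Rpl3l and Rps2 fell, against 12.9% of all genes that rose and 12.5% that fell, with a member median of 0.04. Rps2, a small-subunit protein near the mRNA entry channel, stood at 380 and 357 FPKM at day 0 and at 147 and 248 FPKM at day 5 (log2 fold change -0.95, SE 0.25, limma adjusted p = 0.0331). The call was lost without either library of day 0, day 3 or day 5 (6 of 10 omissions). Its log2 fold change was -0.57 without the first day 5 library. Without the first day 0 library or the first day 5 library no member was called, and without the second day 5 library only Rpl29 was, lower. Quantile normalization gave 10 members that rose and 1 that fell (10.6% and 11.3% of all genes).

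At day 10 against day 0 no member was called in either direction by limma, and none had an unadjusted p under 0.05, in a comparison where 0.00597% of all genes rose and 0% fell. Against day 3, which shares the day 3 libraries with the comparison above, 66 members fell and Rpl3l alone rose, where 18.8% of all genes fell and 19.1% rose. The median log2 fold change of the members was -0.76. Rpl3, Rpl13a and Rps12 had the largest falls, with log2 fold changes of -2.51, -1.87 and -1.37. With the term for Xist 25 fell and 1 rose (10.6% and 12.8% of all genes). Without the first day 10 library 14 fell and 1 rose (9.33% and 10.6% of all genes). Without the first day 3 library 25 fell and 1 rose (9.93% and 13.2%), and without the second 17 fell and 1 rose (8.68% and 11.1%).

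Markers of several cell types moved with the day 3 changes. All 12 muscle fibre markers fell, with a summed level of 76610 to 85350 FPKM at day 0 and 18280 to 23420 FPKM at day 3. All 9 macrophage markers rose, from 49.95 to 103 FPKM summed at day 0 to 1673 to 1717 FPKM at day 3. All 8 myoblast markers (33.7 to 38.0 FPKM, then 996 to 1462 FPKM) and all 8 cell cycle markers (2.20 to 4.98 FPKM, then 16.7 to 34.3 FPKM) rose. Of the 7 fibroblast markers 4 rose, from 73.5 to 210 FPKM to 810 to 855 FPKM. Of the rest, 1 of 5 neutrophil markers and the 1 lymphocyte marker tested rose, and 2 of 6 endothelial and 1 of 5 erythroid markers fell. In bulk tissue, fewer cells of a type and less RNA per cell cannot be told apart. The part of these cells in the ribosomal protein values was not tested.

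Among genes that serve the making and use of ribosomes, calls at day 3 were in both directions, as they were over all genes tested, of which 24.5% rose and 24.3% fell. Of 55 ribosome biogenesis factors tested, 5 rose and 8 fell, with a median log2 fold change of -0.09. Those that rose included Npm1, a nucleolar chaperone (0.95, SE 0.22, limma adjusted p = 0.00938), and Nop58, a box C/D snoRNP protein (0.87, SE 0.21, limma adjusted p = 0.0112). Las1l, an endonuclease that trims the pre-rRNA spacer, fell with a log2 fold change of -0.80 (SE 0.14, limma adjusted p = 0.00297). Of 32 initiation factors 5 rose and 12 fell, with a median of -0.14, and of 9 elongation factors 2 rose and 2 fell. Of 14 regulators of ribosomal protein genes and their mRNAs 4 rose and 4 fell, among them Larp1, which binds pyrimidine-led mRNAs (-0.62, SE 0.15, limma adjusted p = 0.0107). The median of all genes tested was 0.01. The small-subunit genes outside the symbol rule, Fau and Rack1, both rose, with log2 fold changes of 1.09 and 0.84 (limma adjusted p = 0.00397 and 0.0064). Of 2 large-subunit genes outside the rule, 0 were called. Rpl36al had a log2 fold change of 0.26 (SE 0.63, limma adjusted p = 0.756), and the other had -0.07.

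Across the 10 muscle libraries, the genes whose log2 levels were most like Rpl3l, among 12284 with a mean of at least 1 FPKM, included Podxl2 (r = 0.995), St3gal3 (0.994), Nbn (0.994) and Ccng1 (0.993). These are descriptions over libraries that share their days. Among the members the nearest was Rps27l (0.471) and the farthest Rpl19 (-0.968), and Rpl3 stood at -0.932.

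In C2C12 cells Rpl3l was at the floor. Mettl3 stood at 4.70 and 5.65 FPKM in CTRL day 0, 4.68 and 5.15 FPKM in CTRL day 3, 0.331 and 0.118 FPKM in Cas9M3 day 0 and 0.148 and 0.0805 FPKM in Cas9M3 day 3, so both Cas9M3 groups lay below both CTRL groups. Its log2 fold change for Cas9M3 against CTRL was -4.10 on day 0 (SE 0.40, limma adjusted p = 0.188) and -4.56 on day 3 (SE 0.40, limma adjusted p = 0.0187). Rpl3l had 0 and 0 reads in CTRL day 0, 1 and 0 in CTRL day 3, 1 and 1 in Cas9M3 day 0, and 1 and 0 in Cas9M3 day 3. The highest level was 0.0332 FPKM. A count of 0 allows up to 3 reads, or 0.0574 and 0.189 FPKM, in the CTRL day 0 libraries, so no difference between the groups was detectable at this depth.

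Eef1a2 was likewise listed at 0 to 0.0980 FPKM in the 8 cell libraries. In CTRL day 3 the differentiation gene Myog stood at 89.1 and 83.3 FPKM and Myh4, a fast fibre myosin, at 0.0424 and 0.0400 FPKM. The differentiated cells thus held Myog RNA with Myh4 near 0, but other fibre markers were present. Of the 12 muscle fibre markers, 9 were tested in cells. All 9 had positive log2 fold changes in CTRL day 3 against day 0 (median 3.52, 0 called). The 12 summed to 697 and 702 FPKM in CTRL day 3. In muscle at day 0 Myh4 stood at 5647 and 3833 FPKM. Of the 9 macrophage markers, C1qa, C1qb, C1qc, Adgre1 and Itgam were at 0 in every cell library. The 9 together summed to 1.89 to 10.1 FPKM there, and 2 of them passed the filter.

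Rpl3 stood at 269 and 407 FPKM in CTRL day 0, 169 and 205 FPKM in CTRL day 3, 243 and 266 FPKM in Cas9M3 day 0, and 203 and 228 FPKM in Cas9M3 day 3. Both CTRL day 3 libraries were below both CTRL day 0 libraries, and the Cas9M3 days did not overlap either. No comparison of Rpl3 passed the test. The log2 fold change was -0.83 for CTRL day 3 against day 0 (SE 0.27, limma adjusted p = 0.204) and -0.24 for the same days in Cas9M3 (SE 0.27, limma adjusted p = 0.841). For Cas9M3 against CTRL it was -0.38 on day 0 (SE 0.27, limma adjusted p = 0.727) and 0.21 on day 3 (SE 0.27, limma adjusted p = 0.795).

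Among the 83 genes, 80 were tested in the cells, in a set of 13824. Rpl3l, Rpl10l and Rpl39l were left out, the last with 0 reads in all 8 libraries. By limma, 0 members were called in each of the 5 comparisons, with or without the replicate number as a block. The shares of all genes called higher and lower were 0.767% and 0.376% for CTRL day 3 against day 0, 0.0145% and 0.0145% for the same days in Cas9M3, 0% and 0% for Cas9M3 against CTRL on day 0, 1.29% and 0.687% on day 3, and 0% and 0% for the difference of the Cas9M3 effect between days. At an unadjusted p under 0.05 the member counts were 19, 0, 0, 1 and 0, and with the block 64, 1, 1, 1 and 0. With the block the shares of all genes called higher and lower were 1.87% and 1.11% for CTRL day 3 against day 0, 0.0434% and 0.0217% for those days in Cas9M3, 2.31% and 1.35% for Cas9M3 against CTRL on day 3, and 0% for the other 2 comparisons.

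By FPKM, the core members were lower on day 3 than on day 0 in CTRL cells in both replicates, though by unequal amounts. The core median was 168 and 452 FPKM in CTRL day 0 and 124 and 181 FPKM in CTRL day 3. Within the first replicate 78 of 80 members were lower, with a median log2 difference of -0.55, and within the second 78 were lower, with a median of -1.35. The second CTRL day 0 library is the one with 37.9% of its FPKM in Gm23935. Without it the median log2 fold change was -0.30, 0 members were called and 6 had an unadjusted p under 0.05, where 0.64% of all genes were called higher and 0.405% lower. Without the first CTRL day 0 library 68 members were called lower, where 14% of all genes were called lower and 13% higher.

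In Cas9M3 cells the core median was 175 and 243 FPKM on day 0 and 145 and 190 FPKM on day 3. The median log2 difference of the members between the days was -0.29 in the first replicate and -0.27 in the second, with 75 and 74 of 80 lower. Against CTRL on day 0, the Cas9M3 members had a median of 0.02 in the first replicate, with 43 higher and 37 lower, and of -0.97 in the second, with 78 lower. On day 3 the medians were 0.29 and 0.13, with 74 and 55 members higher, and without the first CTRL day 3 library the fitted median was -0.07. Cell state markers differed between these groups. Against CTRL on day 3, 8 of 9 muscle fibre markers tested (median log2 fold change -4.78, 2 called lower), 7 of 7 myoblast markers (-4.60, 1 called) and 8 of 8 cell cycle markers (-1.34, 0 called) had negative log2 fold changes in Cas9M3. Summed, the fibre markers stood at 697 to 702 FPKM in CTRL and 16.1 to 21.4 FPKM in Cas9M3, the myoblast markers at 361 to 398 FPKM and 21.6 to 24.7 FPKM, and the cycle markers at 97.2 to 104 FPKM and 37.7 to 38.4 FPKM. The paper reports the other direction after Mettl3 inhibition, with more MyHC protein and more fusion. By RT-qPCR it also reports higher expression of fusion genes on day 3 of differentiation. The source of this difference was not tested. The part of these markers in the ribosomal protein values was not tested. The day 0 values against CTRL thus rested on which CTRL library was used, and without the second CTRL day 0 library the fitted median was 0.16, with 0 members and 0% of all genes called.

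**Figure D4:**
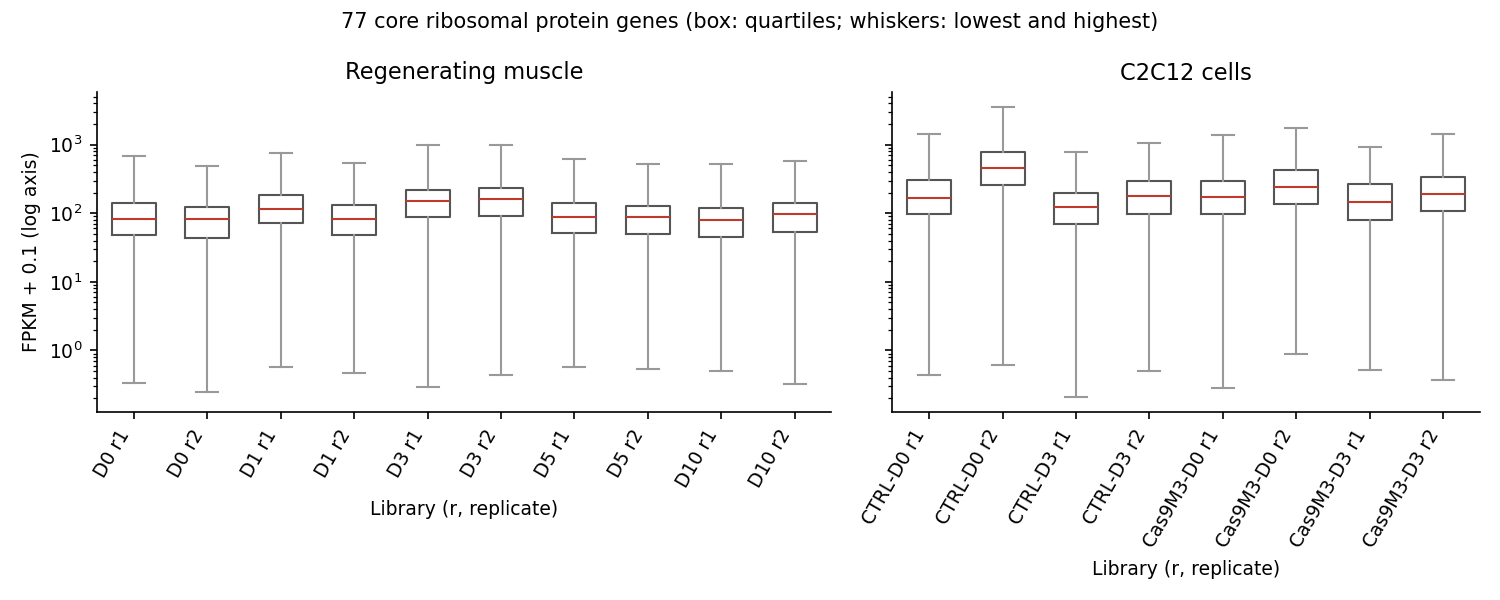
FPKM plus 0.1 on a log axis of the 77 core members in each library, as boxes from the lower to the upper quartile with the median in red and whiskers to the lowest and highest member. The day 3 muscle libraries have medians of 153 and 162 FPKM, and the second CTRL day 0 library, at 452 FPKM, lies above the other 7 cell libraries.

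Of the paralogs tested in cells, Rpl22l1 had the widest span as a ratio of its highest to its lowest library. It stood at 37.7 and 142 FPKM in CTRL day 0, 35.6 and 51.9 FPKM in CTRL day 3, 33.8 and 41.3 FPKM in Cas9M3 day 0, and 27.8 and 31.0 FPKM in Cas9M3 day 3. Its ratio to Rpl22 was 0.833 and 0.893 in CTRL day 3 and 0.402 and 0.394 in Cas9M3 day 3, with no overlap and no test. On day 0 the ratio was 0.745 and 1.32 in CTRL and 0.534 and 0.527 in Cas9M3, also without overlap or test. Rpl7l1 stood at 37.6 and 44.4 FPKM in CTRL day 3 and 25.4 and 26.8 FPKM in Cas9M3 day 3 (log2 fold change -0.65, SE 0.17, limma adjusted p = 0.117). That was the 1 member with an unadjusted p under 0.05 there.

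The order of the core members was much alike in both tables, with a rank correlation of 0.803 over 77 genes that share annotation and counting. A few members, named after their values were seen, were listed far below the rest. Rpl24 stood at 0.106 to 0.846 FPKM in cells. Rps10 stood at 0.778 to 1.92 FPKM in the 8 cell libraries and at 41.8 to 110 FPKM in muscle. Rpl29 stood at 7.03 FPKM in the first day 5 library and at 111 to 191 FPKM in the other 9 muscle libraries. Of the 100-base windows of Rpl24 49% occur in other genes, of those of Rpl29 23.5% and of those of Rps10 16.3%, where the median over the core was 16.3%. Over the 77 core members the rank correlation of level with the shared share was 0.261 in muscle and 0.192 in cells, a weak relation with higher levels at more sharing, given as a description. The level of members with shared windows is uncertain. Exons of another gene on the same strand overlap those of Rpl24 (Gm28037) and Rps10 (RPS10-NUDT3), and none overlap those of Rpl29. Members at ordinary levels have such overlaps too, among them Rpl4 (Gm22455 and Snord16a). Whether overlaps lowered any count was not tested, so the low listed levels may not be true levels.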

How the data were processed

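RNA-seq of mouse muscle and C2C12 cells was analysed from the FPKM values the authors deposited. By the study's methods, the authors used HISAT2 on GRCm38, featureCounts with Ensembl genes and the fpkm function of DESeq2, with a separate scaling for each table. Tool versions and strand settings are not given in the sources used here. How the authors treated reads that match several genes is not given in the sources used here, so levels of members with processed copies are uncertain.

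FPKM plus 0.1 was taken to log2 and fitted with limma 3.58.1 (lmFit, eBayes with trend) in R 4.3.3. All groups of a table entered the same fit, for genes of at least 0.5 FPKM in at least 2 libraries. Calls required a Benjamini-Hochberg adjusted p of at most 0.05 over all genes tested. The procedure was tested on simulated data. Depth came from the step of 1 read in low values (96.97 to 97.70% whole in muscle and 98.68 to 98.90% in cells, within 0.05 of a read), using GENCODE M21 exon lengths matched to 53360 of 53465 and 55227 of 55487 identifiers. Depth limits the precision of low values and entered no test.

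Samples were grouped by their labels. Same-numbered cell libraries deviated together (r = 0.278 to 0.68 over 6 pairs of groups), so the replicate number was tried as a block. The sources used here do not say what a number shares. In muscle r ran from -0.0187 to 0.211. Alternatives were another pseudocount, no filter, quantile normalization, scaling without the members, the block, a term for Xist and each library left out. Named genes were Rpl3l, Rpl3, the paralogs with their parents, Rpsa, the stalk, the 3 largest called rises and falls per comparison and the 5 genes most like Rpl3l, of which 1 is not reported here. Members and lists were chosen with earlier results of these data known. Libraries of Mettl3 or GFP overexpression were not analysed here.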

Additional observations from a re-analysis of the deposited data

Results flagged for a closer look

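Rows for processed copies of ribosomal protein genes lay outside the comparisons. In muscle, 277 such rows summed to 303 and 276 FPKM at day 0 and to 477 and 519 FPKM at day 3, so both day 3 libraries were above both day 0 libraries. These rows drew attention because they carry signal in data that no comparison used. Reads can be shared between a member and its copies, and their source was not tested. In cells 305 such rows summed to 2291 to 8189 FPKM. Groups of 2 libraries were too small for a search for outlying samples.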

How the results depend on the processing

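No called value reversed, but member medians in comparisons with few or no calls changed sign when 1 library was left out: at day 1 (0.23 to -0.02 without the first day 1 library), day 5 (0.04 to -0.07 without the second day 0 library), day 10 (0.02 to -0.06 without the second day 0 and -0.09 without the second day 10 library), Cas9M3 against CTRL on day 0 (-0.47 to 0.16 without the second CTRL day 0 library) and on day 3 (0.21 to -0.07 without the first CTRL day 3 library), and the difference of these effects (0.67 to -0.01 without the second CTRL day 0 library). At day 1 the members called fell to 0 with no filter, with the block and with the term for Xist, and the limma adjusted p of Rpl3 was 0.0886 with no filter (log2 fold change 1.88), 0.0514 after quantile normalization (1.91), 0.0519 with the replicate block (1.88) and 0.468 with the Xist term (1.91). The Xist term gave 40 members at day 3, 26 at day 10 against day 3 and 0 at day 5, where 0% of all genes were called, and Rpl3l was -2.64 (adjusted p = 0.143) and Rpl3 2.00 (adjusted p = 0.253). Quantile normalization gave 11 at day 5. Over nuclear protein-coding genes the members held 2.79% of FPKM at day 0 and 7.84% at day 3, as means of 2 libraries. Such shares depend on the total as well as on the members.

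Leaving out each library in turn gave 0 to 8 members at day 1, 33 to 73 at day 3, 0 to 6 at day 5, 15 to 73 at day 10 against day 3, and 0 to 68 for CTRL day 3 against day 0. The log2 fold change of Rpl3 ranged from 1.36 to 2.40 at day 1, where 7 of 10 omissions lost the call, from 1.45 to 2.49 at day 5, where omitting the first day 0 or either day 5 library lost it, and from -1.13 to -0.53 for CTRL day 3 against day 0, where omitting the first CTRL day 0 library made it a call. Rpl3l at day 5 ranged from -1.92 to -1.60, lost with the same 3 omissions. A lone library was assumed to vary like the other groups. The replicate block changed no other count of members called past 1.5 times; for CTRL day 3 against day 0 it moved all genes called from 106 higher and 52 lower to 258 and 153, and members with an unadjusted p under 0.05 from 19 to 64. In muscle the numbers did not pair. With 2 libraries per group, the absence of calls in cells does not show that groups were alike, and the cause of each change was not tested.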
